A study of Arabidopsis thaliana with 36 samples.

Results

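The 10 genes described here encode the inorganic phosphate (Pi) transporters that Arabidopsis uses inside the cell, at plastid, mitochondrial and Golgi membranes. They are PHT2;1 (AT3G26570), PHT3;1 (AT5G14040), PHT3;2 (AT3G48850), PHT3;3 (AT2G17270), PHT4;1 (AT2G29650), PHT4;2 (AT2G38060), PHT4;3 (AT3G46980), PHT4;4 (AT4G00370), PHT4;5 (AT5G20380) and PHT4;6 (AT5G44370). They were picked by gene identifier out of 28496 named genes. All 10 had a value above 0 in every library and passed the filter on low values in both tissues, although PHT3;2 did so in the shoot through the groups in which it was high, so its shoot tests are also given with no filter. Levels are given in RPKM, read counts divided by exon length and by the mapped reads of the library.

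The study compared wild-type plants (WT, accession Col-0) with lines 4 and 12, a pair of independent transgenic lines that carry the PHT5;1 coding region fused to GFP behind the 35S promoter of cauliflower mosaic virus, which is active in nearly all plant cells. PHT5;1 moves Pi into the vacuole. Seedlings of all 3 genotypes were grown for 10 days on 250 μM Pi (day 0), or were then moved to 10 μM Pi for 1 or 3 days, all on medium with sucrose, and shoots and roots were harvested apart. The starved plants were thus also older than the Pi-sufficient plants and had been transferred, which cannot be told apart from the Pi supply. The hour of harvest is not given in the sources used here. This gave 18 groups of 2 libraries, 36 in all, each made from a pool of about 20 seedlings, and the p-values measure the spread between such pools. In whole organs, fewer cells of a type and less RNA per cell cannot be told apart.

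The read totals recovered from the RPKM steps of low genes were 19.0 M to 40.7 M a library. They are the totals by which the RPKM values were scaled, and their upper end lies above the range of mapped reads stated in the methods of the study. PHT5;1 itself was 3.07 to 11.2 times the WT level in the 6 groups of line 12 and 1.91 to 2.39 times in the roots of line 4, but in line 4 shoots it was 1.82, 1.08 and 1.15 times WT on days 0, 1 and 3 and was not called different. SPX1, a Pi starvation marker, was 15.7 times higher in the WT shoot and 40.2 times higher in the WT root after 3 d at 10 μM Pi. The summed level of 22 green tissue genes was 97770 to 100671 RPKM in the 2 WT shoots on day 0 against 627 to 810 RPKM in the roots, and 12 root genes summed to 302 to 366 RPKM in these shoots and 5763 to 6040 RPKM in the roots. In 5 shoot libraries numbered replicate 2 (WT and line 12 on day 0, line 4 and line 12 on day 1, WT on day 3), 476 to 561 genes carried a level particular to the replicate number, so the shoot results were also computed without these libraries.

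Photosynthesis in the chloroplast and respiration in the mitochondrion both make ATP from ADP and Pi, so each organelle must take up Pi from the cytosol and hand it back bound to sugars or nucleotides. PHT2;1 is a low-affinity transporter of the chloroplast inner envelope. The 3 PHT3 proteins belong to the mitochondrial carrier family and bring Pi across the inner mitochondrial membrane for the ATP synthase. The PHT4 family is spread over several compartments: PHT4;1 lies in the thylakoid membrane and exports Pi from the lumen, PHT4;2 serves root plastids, PHT4;3 and PHT4;5 lie in plastids, PHT4;4 carries ascorbate as well as Pi at the chloroplast envelope, and PHT4;6 returns to the cytosol the Pi that glycosylation releases in the Golgi.

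In WT on sufficient Pi, some of the 10 genes read higher in the shoot and others in the root. PHT4;1, the thylakoid transporter, read 53.5 and 56.8 RPKM in the 2 shoot libraries and 2.48 and 2.56 RPKM in the roots, a 21.9-fold difference (log2 4.32, SE 0.14, limma adjusted p = 2.61e-18 by Benjamini-Hochberg over all genes). PHT2;1 was 5.11 times and PHT4;4 2.34 times higher in the shoot. The other way, PHT4;2, the root plastid transporter, read 6.91 and 6.22 RPKM in the root and 0.372 to 0.685 RPKM in the shoot, or 0.0805 times the root level (log2 −3.16, SE 0.24).

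The 3 mitochondrial carriers were all lower in the shoot, at 0.362 (PHT3;1), 0.380 (PHT3;3) and 0.0451 (PHT3;2) times the root level, and so was the Golgi transporter PHT4;6 at 0.459 times. The PHT3;2 ratio rests on 3 read pairs in the shoots against 73 in the roots, and by these counts it was 0.0457 (exact 95% interval 0.0092 to 0.139, counting error only). In all, 8 of the 10 genes were called between tissues, 3 higher and 5 lower in the shoot, beside 51.1% of all genes tested. A call needed a limma adjusted p under 0.05 and a ratio of at least 2 in the shoot and between tissues, or 1.5 in the root. PHT4;3 and PHT4;5 passed the p threshold at 1.49 and 1.59 times but not the fold.

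**Figure D1:**
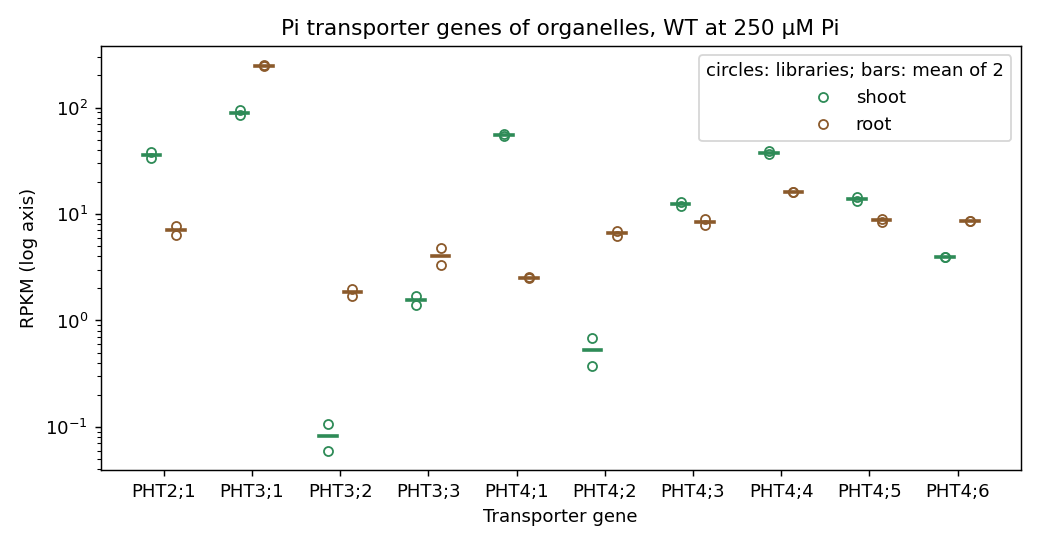
Level of each of the 10 genes in WT on sufficient Pi, in RPKM on a log axis, with a circle per library (2 shoot, 2 root) and a bar at their mean. PHT3;1 is the highest in both tissues, PHT4;1 has the highest shoot to root ratio (21.9), and PHT3;2 and PHT4;2 have the lowest (0.0451 and 0.0805).

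Ordered per exon length, PHT3;1, the main mitochondrial carrier, had the highest level in both organs, 93.8 and 84.9 RPKM in the shoot and 249.6 and 243.9 RPKM in the root. In the shoot it was followed by PHT4;1, then by PHT4;4 and PHT2;1 at 36.7 and 38.8 against 38.5 and 33.5 RPKM, whose libraries overlapped. Below these came PHT4;5, PHT4;3, PHT4;6 (3.95 RPKM in both libraries), PHT3;3, PHT4;2 and, at 0.0595 and 0.107 RPKM, PHT3;2. In the root the runner-up was PHT4;4, at 16.3 and 16.0 RPKM, far below PHT3;1. PHT4;5, PHT4;6 and PHT4;3 followed with overlapping libraries at 7.89 to 9.07 RPKM, as did PHT2;1 and PHT4;2 at 6.22 to 7.70 RPKM, and PHT3;3, PHT4;1 and PHT3;2 came last.

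After 1 d and after 3 d at 10 μM Pi none of the 10 genes was called in the shoot, where 6.07% and 6.81% of all genes were called, and none was called in the root after 1 d (5.0%). By limma, 4 of the 10 had an unadjusted p under 0.05 in each of these 3 comparisons. In the shoot, 4 genes passed the p threshold after 1 d with ratios under 2-fold. They were PHT4;1 (1.68 times, limma adjusted p = 6.67e-05), PHT2;1 (1.41 times), PHT4;4 (1.26 times) and PHT4;5 (1.23 times). After 3 d PHT4;1 stood at 1.54 times, PHT4;5 at 1.38 times and PHT4;6 at 0.788 times the day 0 level, and the other 7 did not pass. The median of all shoot genes was itself −0.11 and −0.14 on the log2 scale after 1 d and 3 d, and relative to it the change of PHT4;1 was 0.86 and 0.76.

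In WT roots 1 of the 10 genes was called after 3 d. PHT3;2, a mitochondrial Pi carrier, read 1.97 and 1.71 RPKM on day 0, 2.51 and 2.36 RPKM after 1 d, and 8.49 and 7.56 RPKM after 3 d. Both 3 d libraries lay above all others of WT. The change by 3 d was 4.36-fold (log2 1.98, SE 0.23, limma adjusted p = 9.86e-06), beside 12.4% of all root genes called. The call held with each library left out in turn and under the other settings tried. Of its paralogs, PHT3;1 read 272 and 277 RPKM after 3 d, and neither it nor PHT3;3 was called.

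The 3 d response differed between the WT organs, in a test of the difference itself, for PHT4;5 (shoot minus root log2 0.62, SE 0.16, limma adjusted p = 0.0127) and for PHT4;6 (−0.67, SE 0.14, adjusted p = 0.00299), 2 of 10 beside 14.5% of all genes. PHT4;6 read 3.95 and 3.95 RPKM on day 0 and 3.26 and 2.98 RPKM after 3 d in the shoot, and 8.55 and 8.68 against 11.2 and 10.8 RPKM in the root. PHT4;5 moved the other way, from 14.5 and 13.3 to 20.1 and 18.4 RPKM in the shoot. The difference of PHT4;5 lost its call without WT shoot replicate 2 of day 0, WT shoot replicate 1 of day 3, or WT root replicate 1 of day 0 or day 3 (adjusted p from 0.0527 to 0.078).

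Both lines shared a pattern in the starved shoots. PHT2;1 and PHT4;1, both chloroplast transporters, were lower there than in WT, at 0.297 to 0.476 times the WT level, and fell within each line between day 0 and day 3. Their upstream regions are printed because these 2 genes moved together, 300 bases before the transcription start of each gene on the gene's own strand, from RefSeq TAIR10.1 (PHT2;1, chr3:9755707-9756006, plus strand; PHT4;1, chr2:12676093-12676392, minus strand). Capitals mark a match to AAAAATCT, the site bound by the clock protein CCA1, on either strand.
PHT2;1: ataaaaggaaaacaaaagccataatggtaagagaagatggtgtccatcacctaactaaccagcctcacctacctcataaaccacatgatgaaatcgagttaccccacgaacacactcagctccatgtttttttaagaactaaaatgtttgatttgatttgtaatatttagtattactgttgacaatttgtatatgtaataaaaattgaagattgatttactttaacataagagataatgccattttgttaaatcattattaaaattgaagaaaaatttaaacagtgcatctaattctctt
PHT4;1: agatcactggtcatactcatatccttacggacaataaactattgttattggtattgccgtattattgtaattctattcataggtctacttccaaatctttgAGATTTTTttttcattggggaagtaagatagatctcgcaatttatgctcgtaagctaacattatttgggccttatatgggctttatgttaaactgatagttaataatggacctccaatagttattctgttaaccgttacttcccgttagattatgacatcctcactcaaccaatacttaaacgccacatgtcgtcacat

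The CCA1 site occurred in PHT4;1, starting at position −199 from the transcription start, and in PHT4;3 at −280, and 8.0% of 26709 such upstream regions held it. The evening element AAAATATCT, a clock motif found in 2.83% of regions, occurred in PHT4;4. The P1BS motif GNATATNC, bound by the Pi starvation regulator PHR1, occurred in PHT3;1 alone among the 10 and in 6.48% of all regions. None of the 3 motifs was found in the window of PHT2;1. Both strands were searched, and a match is only a description of the sequence. The PHT4;1 gene spans chr2:12673099-12676092 and shares 236 exon bases with AT2G29640 on the opposite strand in the same annotation, where that gene reads 1.72 to 4.56 RPKM in the shoot.

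On sufficient Pi, PHT2;1 read 38.5 and 33.5 RPKM in WT shoots, 70.0 and 55.6 RPKM in line 12 and 47.2 and 46.2 RPKM in line 4. After 1 d at low Pi the values were 53.6 and 48.2 in WT, 21.9 and 20.03 in line 12 and 22.7 and 20.6 in line 4. After 3 d they were 41.8 and 37.6, 17.2 and 17.9, and 14.4 and 11.3 RPKM. Both lines thus lay above WT on day 0, with no overlap, and below it on days 1 and 3. The day 0 ratio of line 12 to WT was 1.74 and passed the p threshold but not the fold.

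PHT4;1 read 53.5 and 56.8 RPKM in WT shoots on day 0, 88.3 and 77.8 in line 12 and 67.7 and 73.1 in line 4. After 1 d it was 94.5 and 91.1 in WT, 41.6 and 38.9 in line 12 and 42.7 and 45.6 in line 4. After 3 d it was 81.7 and 88.5, 31.3 and 31.5, and 26.5 and 24.0 RPKM. The order of the genotypes was the same as for PHT2;1 at each time, with no overlap between WT and either line.

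**Figure D2:**
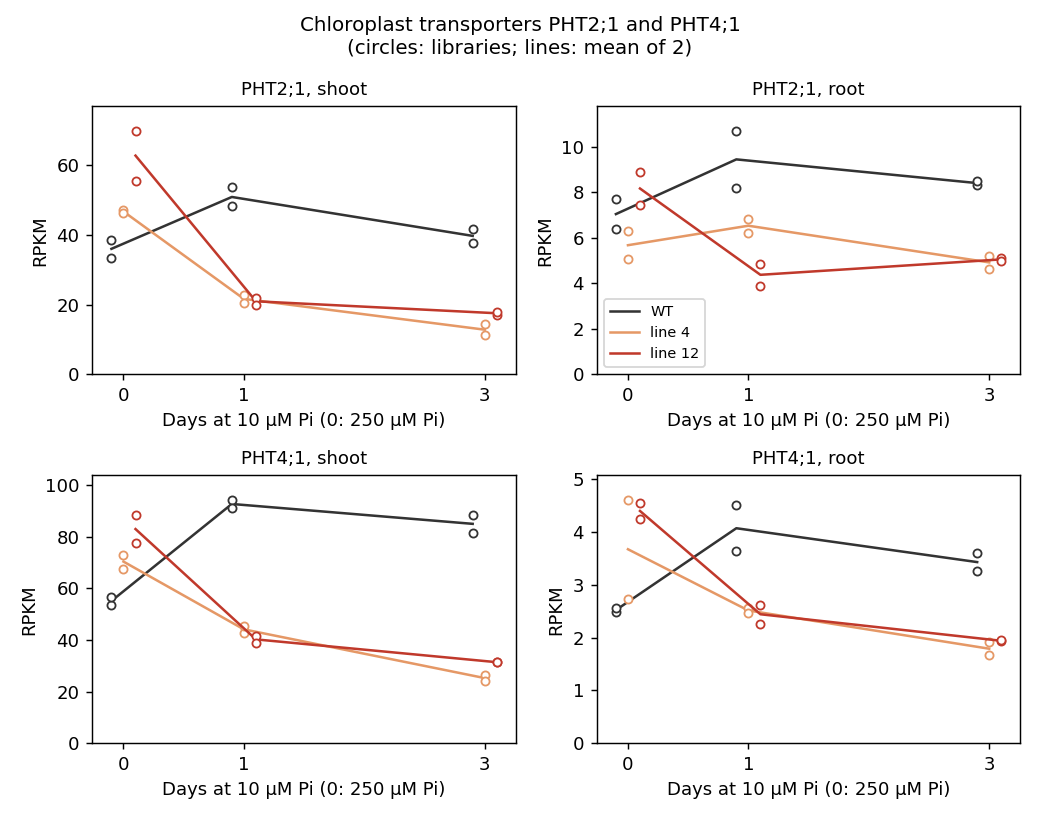
RPKM of PHT2;1 and PHT4;1 in shoots and roots against days at 10 μM Pi (0 is sufficient Pi), with a point per library and lines through the means of the 2 libraries of WT, line 12 and line 4. In the shoot both lines start above WT and lie below it on days 1 and 3, and PHT4;1 ends at 25.3 RPKM in line 4 (mean of 2) from 70.4.

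In line 12 shoots, PHT2;1 was at 0.412 times the WT level after 1 d (log2 −1.27, limma adjusted p = 1.55e-05) and 0.441 times after 3 d. PHT4;1 was at 0.434 times (adjusted p = 1.44e-06) and 0.369 times (adjusted p = 6.23e-07). In line 4, PHT2;1 was at 0.425 and 0.322 times and PHT4;1 at 0.476 and 0.297 times the WT level. Members called in line 12 numbered 1 on day 0, 3 on day 1 and 2 on day 3, beside 9.04%, 11.3% and 7.69% of all genes. In line 4 they numbered 1, 2 and 3, beside 3.21%, 5.84% and 8.22%. PHT3;2 was 1 of those called on days 0 and 1 in line 12 and on days 0 and 3 in line 4. The median of all shoot genes was 0.19 (line 12, both days), 0.11 (line 4, day 1) and 0.16 (line 4, day 3) above WT on the log2 scale, and relative to it PHT4;1 was −1.39 and −1.62 in line 12 and −1.18 and −1.90 in line 4.

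Within each line, day 3 set against its own day 0, these comparisons having been added after the values were seen, gave PHT2;1 at 0.279 times in line 12 (log2 −1.82, SE 0.13, limma adjusted p = 1.12e-06) and 0.274 times in line 4, and PHT4;1 at 0.378 times (log2 −1.39, SE 0.087) and 0.359 times. Line 12 had 3 members called, all lower (PHT2;1, PHT4;1 and PHT3;2), beside 8.27% of all genes, and line 4 had 2 lower, beside 6.96%. The test of the difference from the WT response gave −1.96 for PHT2;1 (SE 0.19, adjusted p = 5.22e-06) and −2.01 for PHT4;1 (SE 0.12, adjusted p = 2.08e-07) in line 12, and −2.0 and −2.09 in line 4. The WT and line 12 responses in this test share no libraries, but both lines were set against the same WT libraries. Without the 5 shoot libraries that carry genes of one replicate number the differences were −2.10 for PHT2;1 and −2.09 for PHT4;1 in line 12 and −1.98 and −2.08 in line 4, all still called.

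Of the 10 members, 5 were called for a lower shoot response in line 12 than in WT, beside 13.3% of all genes called lower and 33.2% called in either direction. In line 4 the number was 4, beside 11.5% lower and 29.8% in either direction. PHT4;4 and PHT4;5, also plastid proteins, were among them in both lines. PHT4;4 read 55.2 and 51.7 RPKM in line 12 on day 0 and 27.8 and 28.0 after 3 d, and 47.1 and 43.2 then 24.5 and 21.6 RPKM in line 4, where WT was at 36.7 and 38.8 and then 37.2 and 34.8. Its response differed by −0.86 in line 12 (limma adjusted p = 8.23e-05) and −0.90 in line 4, and within the lines it came to 0.523 and 0.510 times, past the p threshold but just short of 2-fold. PHT4;5 differed by −0.91 and −0.68, with 17.5 and 17.3 RPKM on day 0 and 11.8 and 13.6 RPKM after 3 d in line 12. PHT4;4 shares 127 exon bases with AT4G00360 on the opposite strand, at 70.4 to 108 RPKM in the shoot, and whether the counting used strand is not stated.

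**Figure D3:**
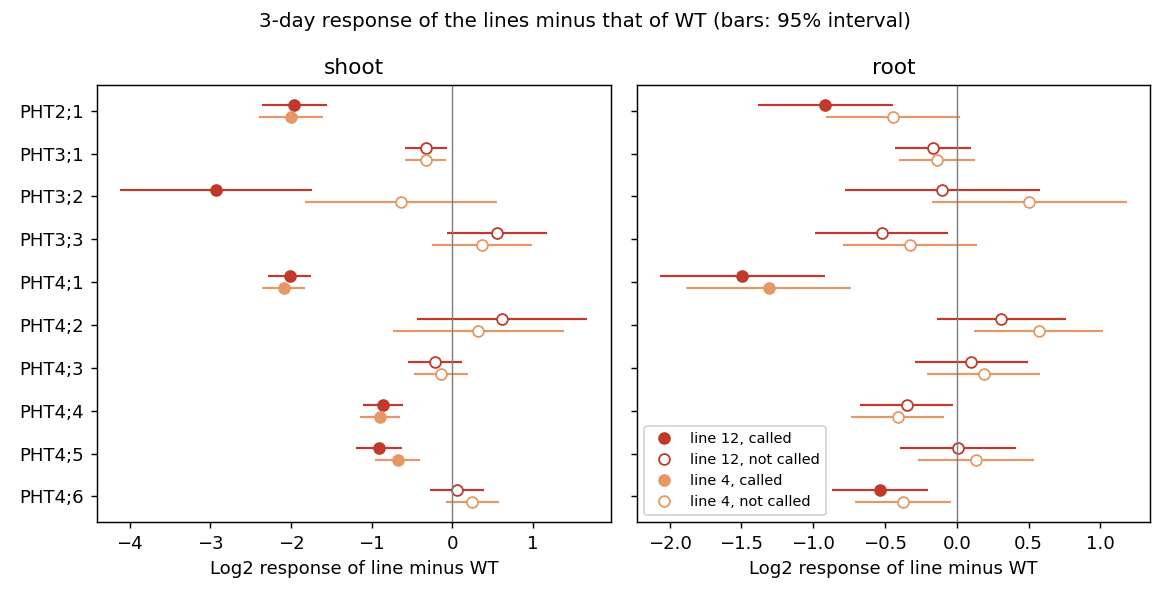
Line response minus WT response after 3 d (log2) for each of the 10 genes, in shoot and root, line 12 and line 4. Bars are 95% confidence intervals from limma, and filled points are called differences. PHT2;1 and PHT4;1 lie near −2 in the shoots of both lines, and PHT4;1 is at −1.49 and −1.31 in the roots.

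In roots PHT4;1 moved the same way at much lower levels. PHT4;1 read 2.48 and 2.56 RPKM in WT on day 0, 4.5 and 3.63 after 1 d and 3.60 and 3.25 after 3 d. In line 12 it read 4.55 and 4.25, 2.62 and 2.26, and 1.93 and 1.94 RPKM. In line 4 the values were 4.61 and 2.73, 2.56 and 2.47, and 1.67 and 1.91 RPKM. The lines thus lay above WT on day 0 and below it on days 1 and 3, with no overlap.

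PHT2;1 in roots read 7.70 and 6.39 RPKM in WT on day 0, 10.7 and 8.19 after 1 d and 8.32 and 8.50 after 3 d. In line 12 it read 7.44 and 8.90, then 4.86 and 3.89, then 5.13 and 4.98 RPKM. In line 4 it read 6.29 and 5.07, then 6.84 and 6.23, then 4.65 and 5.19 RPKM. On day 0 line 12 overlapped WT and line 4 lay below it, unlike in the shoot, and on days 1 and 3 both lines lay below WT.

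The root response of PHT4;1 differed from that of WT by −1.49 in line 12 (SE 0.27, limma adjusted p = 0.00147) and −1.31 in line 4 (SE 0.27, adjusted p = 0.00705), and both held with each library left out in turn. Of the 10 members, 3 were lower in line 12 (PHT2;1, PHT4;1 and PHT4;6), beside 6.07% of all genes called lower and 11.1% in either direction. In line 4 the number was 1 (PHT4;1), beside 1.68% lower and 6.42% in either direction. The differences of PHT2;1 (−0.91, adjusted p = 0.0116) and PHT4;6 (−0.53, adjusted p = 0.0383) were less stable: the first was lost without replicate 2 of WT or of line 12 on day 0 (adjusted p = 0.0662 and 0.0654), and the second without any 1 of the 4 WT libraries or replicate 2 of line 12 on day 0 or day 3 (adjusted p up to 0.17). Within the lines, PHT4;1 fell to 0.441 times its day 0 level in line 12 (adjusted p = 0.000872) and 0.487 times in line 4 (adjusted p = 0.00218), and PHT2;1 to 0.619 times in line 12 (adjusted p = 0.00772), a call lost without line 12 replicate 2 of day 0 (adjusted p = 0.104) or of day 3 (0.0528). In line 12 there were 3 calls (1 higher) beside 8.59% of all genes, and in line 4 also 3 (2 higher) beside 13.0%.

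Against WT at single times, the root differences were close to the thresholds. In line 12 the members called were 1 on day 0 (PHT4;1, 1.74 times, limma adjusted p = 0.0221), 2 on day 1 (PHT2;1 at 0.463 and PHT4;1 at 0.60 times) and 2 on day 3 (PHT2;1 at 0.601 and PHT4;1 at 0.566 times), beside 5.10%, 5.87% and 5.18% of all genes. In line 4 they were 1 on day 0 (PHT4;2), 0 on day 1 (2 at an unadjusted p under 0.05 by limma) and 2 on day 3 (PHT2;1 at 0.585 and PHT4;1 at 0.522 times), beside 4.44%, 3.17% and 3.02%. Each PHT4;1 call on days 0 and 3 was lost without any 1 of its 4 libraries, with adjusted p from 0.083 to 0.13 on day 0 and from 0.0667 to 0.132 on day 3 in line 12, and from 0.0599 to 0.124 in line 4. That of day 1 was lost without WT replicate 1 or either line 12 library (adjusted p from 0.0588 to 0.238). PHT2;1 kept its call on day 1 but lost it on day 3 in line 12 without WT replicate 2 or line 12 replicate 2 (adjusted p = 0.0584 and 0.0683), and in line 4 without either WT library or line 4 replicate 1 (adjusted p from 0.0565 to 0.0874).

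PHT4;1 is known as a gene under circadian control that CCA1 binds, and 10 clock genes were therefore read beside it, chosen after the values were seen, of which 9 were tested in the shoot. CCA1, a morning clock repressor, read 1.44 and 1.71 RPKM in WT shoots on day 0 and 1.98 and 2.24 RPKM on day 1, against 3.97 and 2.27 then 0.367 and 0.418 in line 12, and 2.28 and 2.57 then 0.489 and 0.589 in line 4. PRR9, a morning-phased repressor, was 6.09 times higher in WT shoots after 1 d, and on day 1 read 2.03 and 2.59 RPKM in WT against 0.221 and 0.268 RPKM in line 12. Lower calls against WT numbered 3 on day 1 and 2 on day 3 in each line, and 1 gene, PRR9, was higher on day 0. Over all 19773 shoot genes tested, lower calls on days 1 and 3 numbered 786 and 804 in line 12 and 545 and 871 in line 4. After 3 d the response difference was above WT for 4 of 9 clock genes and below it for 4 in line 12, and for 3 and 4 genes in line 4. Over all shoot genes, 3925 were called above and 2638 below in line 12, and 3617 and 2270 in line 4.

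In roots, GI, an evening-phased clock gene, read 12.2 and 13.9 RPKM in WT on day 0 and 43.0 and 34.6 RPKM on day 3, against 48.4 and 44.3 then 12.8 and 14.9 in line 12 and 32.2 and 27.7 then 21.0 and 16.3 in line 4. The order of WT and the lines in GI turned around between day 0 and day 3. GI belongs to a list chosen after the values were seen. Apart from CCA1, the root values of the other clock genes are not given, and neither is a count over the list. CCA1 in roots on day 0 read 0.792 and 0.737 RPKM in WT and 1.12 and 1.19 in line 12. In line 4 roots CCA1 read 0.654 and 0.740 RPKM on day 0 and overlapped WT. The part that clock phase or the hour of harvest has in the PHT2;1 and PHT4;1 values was not tested.

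**Figure D4:**
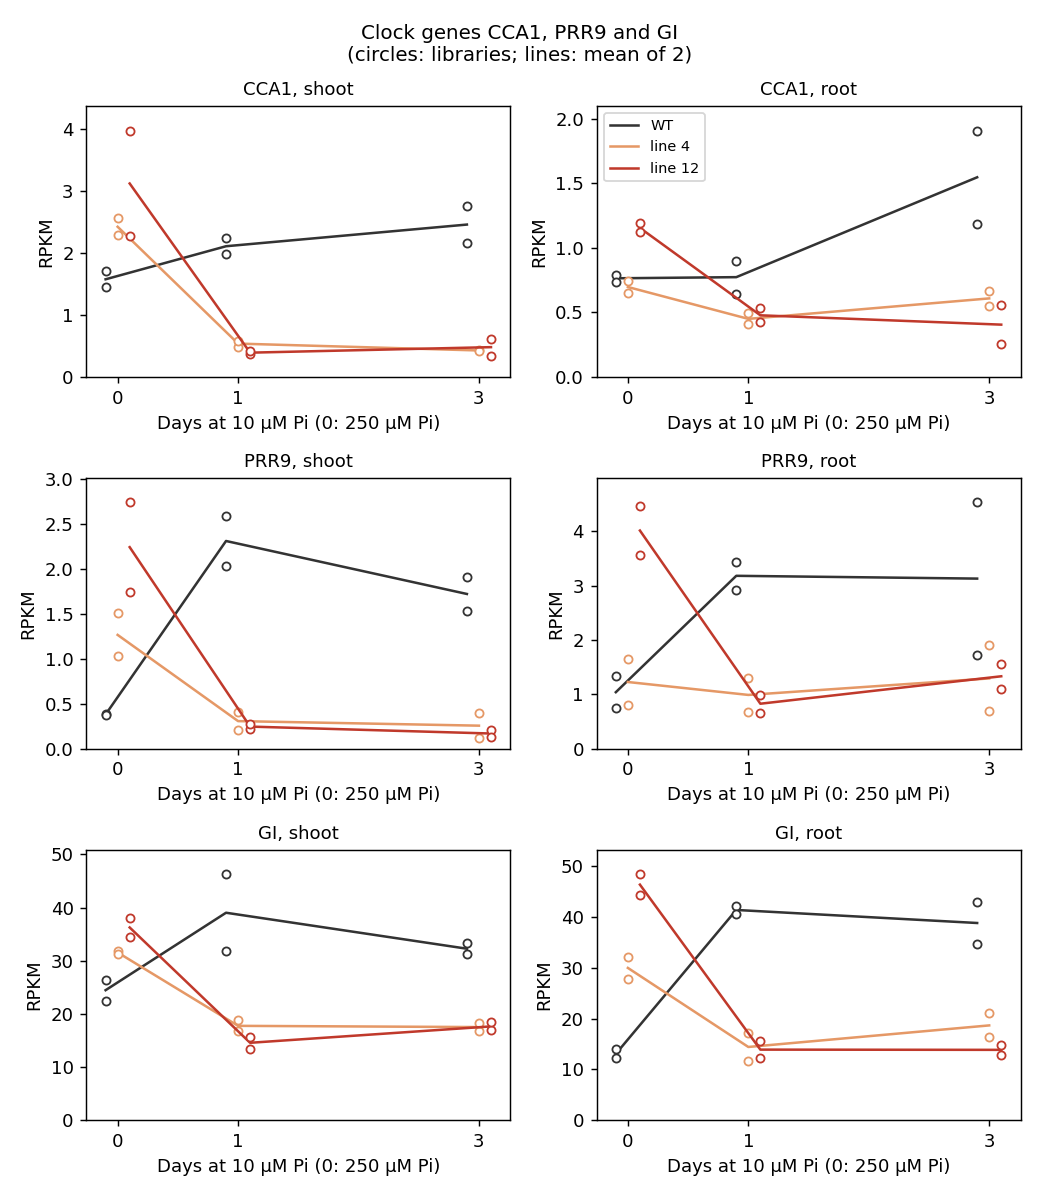
RPKM of the clock genes CCA1, PRR9 and GI in shoots and roots against days at 10 μM Pi (0 is sufficient Pi), with a point per library and lines through the means of 2 libraries of WT, line 12 and line 4. GI in the root reads 12.2 and 13.9 RPKM in WT and 48.4 and 44.3 RPKM in line 12 on day 0, and the order is turned around on day 3.

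Green tissue genes moved in part with them. In line 12 shoots 0, 4 and 4 of the 22 genes were called lower on days 0, 1 and 3, and in line 4 shoots 0, 2 and 3. Most of the 22 were thus not called lower in the shoot. Of all 19773 shoot genes tested, 786 and 804 were lower in line 12 on days 1 and 3, and 545 and 871 in line 4. The summed level of the 22 was 100106 to 115819 RPKM in WT shoots on day 3, 72339 to 75819 in line 12 and 76011 to 81762 in line 4. In WT roots 17 and 14 of the 22 were called higher after 1 d and 3 d, beside 736 and 1698 of all 20530 genes tested. The sums were 627 to 810, 1229 to 1364 and 1244 to 1298 RPKM on days 0, 1 and 3. In line 12 roots 3 were higher on day 0, and 14 and 4 lower on days 1 and 3. Over all genes, 495 were higher and then 702 and 575 lower. In line 4 roots 1, 7 and 5 were lower, beside 767, 368 and 362 of all genes. The part of the green tissue genes in the values of PHT2;1 and PHT4;1 was not tested.

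Among the PHT3 carriers, PHT3;2 was the one called in any comparison of times or genotypes. Its upstream region, 300 bases on the minus strand at chr3:18116570-18116869 of TAIR10.1, is shown because this gene was the one called in WT roots, and it held none of the 3 motifs.
PHT3;2: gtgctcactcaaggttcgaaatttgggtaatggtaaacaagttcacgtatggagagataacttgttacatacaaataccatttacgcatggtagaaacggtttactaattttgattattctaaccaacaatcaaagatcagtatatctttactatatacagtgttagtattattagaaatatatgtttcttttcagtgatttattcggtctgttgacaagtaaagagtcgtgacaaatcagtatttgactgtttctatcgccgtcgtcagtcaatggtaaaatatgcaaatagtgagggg

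In roots of line 12 PHT3;2 read 1.73 and 1.17 RPKM on day 0 and 6.81 and 5.20 RPKM after 3 d, a 4.13-fold change (log2 1.88, limma adjusted p = 2.32e-05). In line 4 it read 1.56 and 0.824 and then 7.44 and 7.74 RPKM, a 6.37-fold change (log2 2.49, adjusted p = 5.80e-07). PHT3;2 was thus called higher after 3 d in the roots of all 3 genotypes, and no difference between a line and WT was called for it in the root at any time or in the response.

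In WT shoots PHT3;2 was close to the limit of the sequencing. It read 0.0595 and 0.107 RPKM on day 0, which stand for 2 and 4 reads. In line 12 it read 1.21 and 2.53 RPKM (58 and 86 reads), and in line 4 1.29 and 0.589 RPKM (56 and 22 reads). Every line library lay above both WT libraries. The ratio of read pairs was 20.9 for line 12 to WT (exact 95% interval 6.86 to 104) and 11.4 for line 4 to WT (3.63 to 57.8), and these intervals cover counting error only.

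On the log2 scale with the pseudocount, the day 0 difference of PHT3;2 was 2.60 in line 12 (SE 0.39, limma adjusted p = 0.00031) and 1.77 in line 4 (adjusted p = 0.0137). After 1 d WT read 0.0517 and 0.345 RPKM and line 12 read 1.91 and 2.44 RPKM, with a log2 difference of 2.51 (adjusted p = 0.000259). By day 3 WT read 0.437 and 0.361 RPKM, line 12 0.308 and 0.230 and line 4 1.17 and 1.18. Line 12 was called lower in its own 3 d response (log2 −1.96, adjusted p = 0.00185) and differed from the WT response by −2.93 (SE 0.55, adjusted p = 0.0012), while PHT3;2 in its roots was called higher. With no filter on low values, so that its level had no part in its being tested, the limma adjusted p was 0.000581 for line 12 and 0.0193 for line 4 on day 0, 0.000429 for line 12 on day 1, 0.00255 for the change within line 12 and 0.00169 for the difference from the WT response.

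The shoot calls of PHT3;2 rested on few libraries. In line 4 the day 0 call was lost without WT replicate 1, WT replicate 2 or line 4 replicate 1 (limma adjusted p = 0.0672, 0.0738 and 0.169), and the day 3 call (2.95 times, adjusted p = 0.0342) without any 1 of its 4 libraries (adjusted p from 0.0889 to 0.125). Without the 5 shoot libraries that carry genes of one replicate number, which leaves 5 groups with a lone library assumed to vary like the rest, the log2 difference on day 0 was 2.24 in line 12 (adjusted p = 0.083) and 1.87 in line 4 (adjusted p = 0.182), and that of the line 12 response was −2.65 (adjusted p = 0.0595), while the log2 change within line 12 was −1.5 (adjusted p = 0.0799). Of 1229 windows of 50 bases in the PHT3;2 exons, 6 occur elsewhere in the genome, and none of those of the other 9 genes do.

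**Figure D5:**
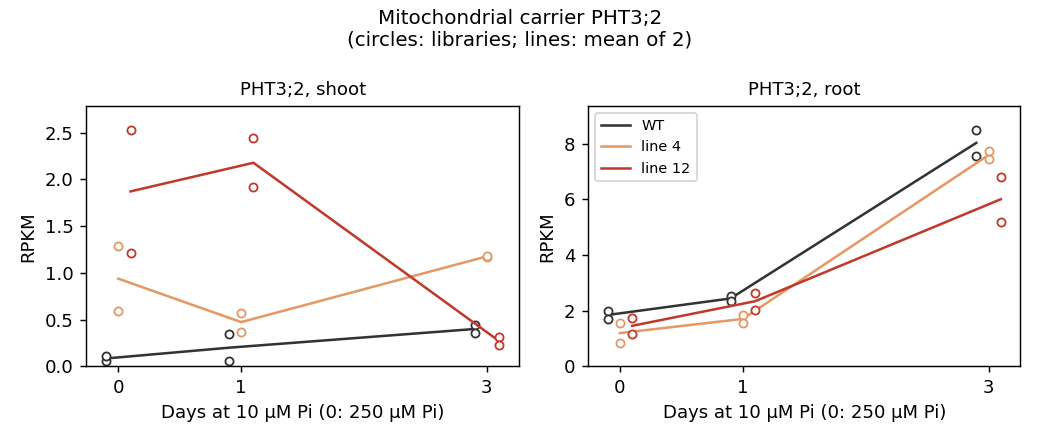
RPKM of PHT3;2 in shoots and roots against days at 10 μM Pi, with a point per library and lines through the means of 2 libraries of WT, line 12 and line 4. All 3 genotypes are highest in the root on day 3 (5.20 to 8.49 RPKM), while in the shoot line 12 falls from 1.21 and 2.53 RPKM on day 0 to 0.308 and 0.230 RPKM.

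The other members changed little. PHT3;1 ranged from 84.9 to 121 RPKM over the 18 shoot libraries and from 226 to 277 RPKM over the 18 root libraries, with the highest and lowest group means 1.34 and 1.17 times apart. On day 0 the line shoots read 118 and 121 RPKM (line 12) and 120 and 108 RPKM (line 4) against 93.8 and 84.9 RPKM in WT, past the p threshold in line 12 at 1.34 times. PHT4;3 ranged from 10.9 to 15.3 and from 6.09 to 9.01 RPKM and was called in no comparison between genotypes or times. PHT3;3 was at 1.26 to 2.59 RPKM in the shoot, and its 1.83-fold difference in line 12 on day 3 passed the p threshold alone (limma adjusted p = 0.0103).

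PHT4;4 and PHT4;5 in the line shoots read below WT from day 1, past the p threshold in both lines but under 2-fold. PHT4;4 read 47.3 and 47.7 RPKM in WT shoots on day 1 against 37.2 and 35.9 in line 12 and 34.0 and 34.1 in line 4, with no overlap. PHT4;5 read 17.6 and 16.7 RPKM in WT, 12.2 and 12.1 in line 12 and 12.4 and 12.5 in line 4. In the root PHT4;4 ranged from 12.0 to 21.3 RPKM and PHT4;5 from 6.66 to 10.6 RPKM over the 18 libraries, and neither was called against WT there.

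PHT4;2 in line 4 roots read 4.85 and 3.51 RPKM on day 0, 6.30 and 6.31 after 1 d and 7.33 and 6.80 after 3 d, where WT read 6.91 and 6.22, 7.42 and 6.19, and 6.70 and 8.19 RPKM. It was called lower than WT on day 0 (0.636 times, limma adjusted p = 0.0141) and higher after 3 d than on day 0 within line 4 (1.69 times, adjusted p = 0.00153). Both calls were lost without line 4 replicate 2 of day 0, the shallowest library of the series (adjusted p = 0.148 for the first, under 1.5-fold for the second), and the first also without WT replicate 1 (adjusted p = 0.139) and, falling short of 1.5-fold, with the libraries rescaled by median ratio (log2 −0.54, adjusted p = 0.0106). In the shoot PHT4;2 was at 0.159 to 0.685 RPKM. PHT4;6 was 1.53 times WT in line 12 shoots on day 1 (5.72 and 5.61 against 3.76 and 3.66 RPKM), past the p threshold only.

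Related genes were 26 transporters and ATP synthase subunits of plastids and mitochondria, of which 25 were tested in the root. Of these, WT starvation called 4 higher in the shoot and 3 in the root after 3 d. In the shoot these were the mitochondrial dicarboxylate carriers DIC3 (21.0 times, with a day 0 mean of 0.161 RPKM set to 0.25), DIC2 (5.96 times) and DIC1 (3.76 times), which exchange organic acids and Pi, and APC2, an ATP-Mg and Pi carrier (2.49 times). In the root they were DIC3 (7.08 times, with a day 0 mean of 0.0703 RPKM set to 0.25), APC2 (2.65 times) and DIC1 (2.11 times). Both day 0 means of DIC3 lay under the filter on low values, so DIC3 was tested through groups in which it was higher. No test of DIC3 without the filter is given, and its calls carry that limit. Over all genes, 855 of 19773 were called higher in the shoot and 1698 of 20530 in the root. In either direction the shares were 6.81% and 12.4%. On day 0, 5 of the 26 were called higher in line 12 shoots, beside 1396 of all 19773 genes tested. GPT2, the plastid glucose 6-phosphate translocator, was at 14.1 times WT, DIC2 at 6.02 and DIC1 at 4.42 times. AAC3, an ADP/ATP carrier, was at 3.19 times WT. None of the 25 tested was called in line 12 roots on day 0, beside 5.10% of all genes. By limma, 4 had an unadjusted p under 0.05, and 2 had an adjusted p under 0.05 without meeting the rule for a call. In the response difference 11 of the 26 were lower in the shoots of each line, with a median of −0.36 in line 12 and −0.38 in line 4 beside 0.14 and 0.16 over all genes, of which 13.3% and 11.5% were called lower.

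The genes whose pattern over the 18 libraries of the tissue with the higher level was most like that of a member were found by Pearson's r of log2 RPKM, given as a description, since the points share libraries and treatments. For PHT2;1 these were AT5G45650 (r = 0.984) and AT3G01060 (0.979). For PHT4;1 they were AT3G28070 (0.986) and AT4G16880 (0.985), and for PHT4;4 AT1G53240 (0.974) and AT1G49430 (0.973). PHT3;2 was closest to AT1G18970 (0.992) and to AT3G52820 (0.982), both over roots. The least close were those of PHT4;3 (0.818 and 0.816) and PHT3;3 (0.819 and 0.792).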

How the data were processed

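RNA from pools of about 20 seedlings was sequenced as paired reads, 12 libraries to a lane. The authors trimmed the reads, used CLC Genomics Workbench for mapping on TAIR10, and deposited RPKM per gene for 36 libraries. Their columns of log2 ratios, mean values and GO p-values were not used. The study tested counts with edgeR, but RPKM are not counts, so limma 3.58.1 (R 4.3.3) with a variance trend was fitted to log2(RPKM + 0.25), all groups of a tissue together, on genes averaging 0.25 RPKM or more (19773 in the shoot, 20530 in the root, 21141 for both). Fold changes on this scale understate the change of low genes. Adjusted p-values are Benjamini-Hochberg values over the whole table. Ratios are of mean RPKM, with means under 0.25 set to 0.25, and differences of responses were called by adjusted p alone. Whole reads were recovered from the RPKM steps for totals and for PHT3;2. Entries with no gene name (146) were left out. All members are named, and of related genes up to 4 called with the largest change. Members and lists were chosen with earlier results of these data known. The clock list, the within-line responses, the evening element and CCA1 motifs and the fit without 5 libraries were added after the values were seen. The fit was also run on simulated log2 values drawn independently from normal distributions. That run does not cover genes of few reads or libraries that vary together, and no result here rests on it.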

Additional observations from a re-analysis of the deposited data

Results flagged for a closer look

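The 3 d response of the lines differed from that of WT, in a test of the difference itself (limma, log2 scale), for 5 members in line 12 shoots. The differences were −1.96 for PHT2;1, −2.93 for PHT3;2, −2.01 for PHT4;1, −0.86 for PHT4;4 and −0.91 for PHT4;5. PHT3;2 passed the filter on low values in the shoot through the groups in which it was high, and with no filter its adjusted p was 0.00169. In line 4 shoots they were −2.0 for PHT2;1, −2.09 for PHT4;1, −0.90 for PHT4;4 and −0.68 for PHT4;5. Both lines are set against the same WT libraries. In the root they were −0.91 for PHT2;1, −1.49 for PHT4;1 and −0.53 for PHT4;6 in line 12, and −1.31 for PHT4;1 in line 4. Between the WT organs, the shoot response minus the root response was 0.62 for PHT4;5 and −0.67 for PHT4;6. The WT shoot response of PHT4;1 is positive and that of both lines negative. In these shoots CCA1, a single gene of the clock list, read above WT in both lines on day 0, where it was not called. On days 1 and 3 it read below WT. Clock genes, a list chosen after the values were seen, differed from the WT response in either direction. The part of clock phase or harvest hour in the PHT4;1 response was not tested.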

How the results depend on the processing

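Of 55 called changes, 795 values were computed under other settings, of which 741 kept their call, 54 lost it and 0 changed sign. The 16 called changes of PHT2;1 and PHT4;1 in the shoot lost none of their 240 values. Of 370 counts of members called, 329 stayed within 1.5 times. In WT roots after 1 d the count went from 0 to 1 (PHT4;1) with a pseudocount of 1, with a median-ratio rescaling and with the replicate block. In line 4 roots on day 1 it went from 0 to 1 with the rescaling and with the replicate block, and the line 4 root response from 1 to 3 with the rescaling. With the rescaling PHT4;2 also lost its day 0 call in line 4 roots (log2 −0.54, under 1.5-fold). In line 12 roots on day 1 the count went from 2 to 1 with no filter and with only the groups compared. On day 0 in the shoot it went from 1 to 0 in both lines at a filter of 1 RPKM, which leaves PHT3;2 untested, and without the 5 libraries named above, and in line 4 with only the groups compared.

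With 1 library left out in turn, the counts ranged from 0 to 1 for line 4 shoots on day 0, from 1 to 2 for shoot minus root, from 0 to 0 for line 12 roots on day 0, from 1 to 2 on day 1 and from 0 to 1 on day 3, from 0 to 2 for line 4 roots on day 0, from 0 to 1 on day 1 and from 0 to 1 on day 3, from 1 to 3 for the line 12 root response and from 1 to 2 for that of line 4.

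The median correlation of same-numbered residuals was 0.024 in the shoot (from −0.178 to 0.699) and 0.0725 in the root (from −0.069 to 0.238). Of 36 pairs of groups, 11 in the shoot and 10 in the root lay above 0.1, and 4 and 0 lay below −0.1. Some same-numbered libraries thus varied together, although the medians were near 0. The replicate block kept all 55 called changes. With 2 libraries a group, single libraries decide most root calls of PHT2;1 and PHT4;1, and PHT3;2 in WT shoots on day 0 rests on 2 to 4 reads a library.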
